A study of Mus musculus with 7 samples.

Results

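The 8 genes described here are regulators and markers of pancreatic alpha cells, the islet cells that secrete glucagon. Irx1, Irx2 and Pou3f4 encode homeobox transcription factors and Fev encodes a factor of the ETS family. Gc encodes the vitamin D-binding protein and Ttr encodes transthyretin, a carrier of thyroxine and of retinol-binding protein. Slc38a5 encodes a transporter of glutamine and other neutral amino acids, and Dpp4 encodes a surface peptidase. The genes were chosen by symbol as markers named for this cell type, and no threshold on a measured value was used, but the tie of Slc38a5 to exocrine content was known when it was chosen. All 8 were found among the 55487 genes of the count table, and all 8 passed the filter on low counts that left 16203 genes for testing.

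Alpha-cell identity rests on a small set of transcription factors. The IRX proteins mark mature mouse alpha cells, while POU3F4 binds the glucagon gene promoter. The Fev protein is best known from serotonin neurons and is also made by endocrine precursors of the pancreas. Of the surface proteins, DPP4 cleaves glucagon-like peptide 1, and the SLC38A5 transporter is known for its induction in alpha cells when glucagon signalling is interrupted.

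RNA was sequenced in 4 libraries from islets of control mice and in 3 from islets of mice in which Traf6, the gene of a ubiquitin ligase below innate immune receptors, was deleted in beta cells only (Traf6 KO). Mice of both genotypes had been fed a 60% high-fat diet for 15 weeks, and all islets recovered in medium for 24 hours before RNA was taken. The labels name no driver of the deletion and no strain, age, sex or litter, and the comparison group is described only as control. Whole islets hold beta, alpha, delta and other cells, and alpha cells were not the cells in which the deletion was meant to occur. The comparison of genotypes therefore asked whether transcripts named as alpha-cell markers differed in whole islets with Traf6-deleted beta cells. Nothing in the labels says whether the libraries came from separate cultures or pools, so the p-values measure the spread between these samples.

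Library totals ran from 22104256 to 29917292 counts. The 21 acinar marker genes, which mark the exocrine pancreas, took 18.9%, 0.454%, 0.431% and 3.04% of all counts in controls 1 to 4 and 52.6%, 40.2% and 1.51% in Traf6 KO 1 to 3. Control 1, Traf6 KO 1 and Traf6 KO 2 were thus rich in exocrine RNA, and the other 4 libraries were poor in it. Traf6 itself stood at 12.7 to 25.5 CPM in control and 14.5 to 15.4 CPM in Traf6 KO, with the library labelled control 4 lowest, so this gene does not set its label apart from Traf6 KO. The counts cover whole genes and all islet cells. Sample names carry a tag with the letter Q, R or S, called an animal tag here, which the labels do not explain. Tag S belongs to control 4 and Traf6 KO 3. Traf6 KO 3 had 421 CPM of Xist and 0 CPM of 4 Y-linked genes, while the other 6 libraries had at most 0.389 CPM of Xist and at least 105 CPM of those Y-linked genes. Glucagon transcripts (Gcg) took between 0.857% and 3.63% of all counts, so the defining transcript of alpha cells was present in each library. CPM denotes a count scaled to its library's size after TMM normalization (trimmed mean of M values).

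Per kilobase of exon model, the mean level was highest for Ttr, at 748 CPM per kb, followed by Gc at 57.3, Slc38a5 at 20.7, Irx1 at 9.78, Dpp4 at 9.47, Irx2 at 8.12, Fev at 6.52 and Pou3f4 at 0.427. Gcg itself stood at 15013 CPM per kb. The ranks of Gcg, Ttr and Gc held in 7 of 7 libraries, as did Irx2 above Fev and Fev above Pou3f4. The neighbouring ranks of Slc38a5, Irx1 and Dpp4 did not hold: Slc38a5 exceeded Irx1 in 3 libraries, and Irx1 exceeded Dpp4 in 3 of 7. Irx1 and Dpp4 did not differ beyond their spread in control, with 9.84 ± 3.01 and 9.39 ± 1.10 CPM per kb (SD, n = 4).

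No member passed the test between genotypes after adjustment over all genes tested. By edgeR's quasi-likelihood test, 0 of the 8 members had a Benjamini-Hochberg adjusted p under 0.05, and the share called among all 16203 genes was 0%, with 2589 genes at an unadjusted p under 0.05. Among the members only Slc38a5 was under that unadjusted level. The DESeq2 Wald test called 744 genes and limma-voom called 0 genes, and neither called a member. A fold change above zero was found for 3 members and below zero for 5, with a median log2 fold change of -0.021 beside 0.0051 over all genes tested. The sign was stable for Slc38a5 alone, while that of each of the other 7 members changed under at least 1 alternative or with 1 library left out. In 0 of the 8 members did the genotypes separate without overlap, while over all genes tested the Traf6 KO values all exceeded the control values in 5.58% and all fell short of them in 8.68%. Without Traf6 KO 3 the edgeR test called 701 genes, none of them a member. That fit keeps only acinar-rich Traf6 KO libraries, and the part of exocrine content was not tested. Slc38a5 came nearest among the members there, with an adjusted p of 0.0585 by edgeR. In bulk islets a change in the number of alpha cells and a change in RNA per alpha cell cannot be told apart. Nor can either be told from a change in other cells that make the same transcript.

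**Figure D1:**
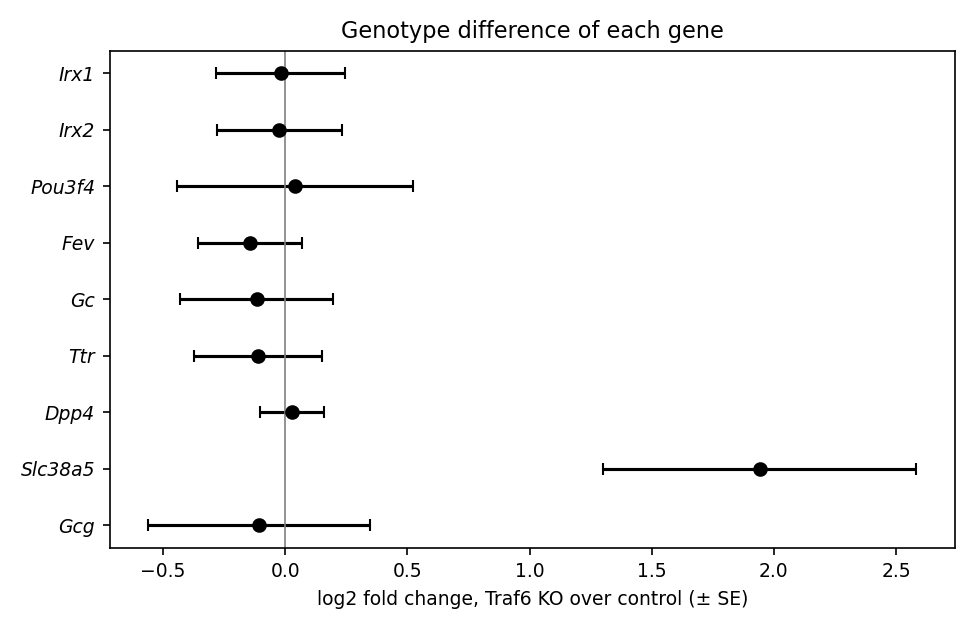
Log2 fold change, Traf6 KO (n = 3) over control (n = 4), of the 8 members and of Gcg, with SE bars derived from edgeR's F statistic. Slc38a5, at 1.94, is the only gene whose bar does not reach 0 among the members.

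Irx1 and Irx2 are neighbouring genes of one Iroquois cluster. Irx1 (ENSMUSG00000060969) lies on chromosome 13 at 71957921 to 71963723 on the minus strand of GRCm38, and Irx2 (ENSMUSG00000001504) lies 665096 bp away at 72628820 to 72634198 on the plus strand. Irx1 stood at 33.5, 23.7, 15.6 and 30.2 CPM in controls 1 to 4 and at 21.3, 23.2 and 31.7 CPM in Traf6 KO 1 to 3. The genotypes overlapped fully, control 3 was lowest and control 1 highest. The log2 fold change of Irx1 was -0.018 ± 0.26 (SE), adjusted p = 0.981 by edgeR. Irx2 stood at 30.5, 23.7, 19.7 and 33.7 CPM in controls 1 to 4 and at 18.7, 24.7 and 35.6 CPM in Traf6 KO 1 to 3. Both tag S libraries held the highest Irx2 values, 1 in each genotype. Its log2 fold change was -0.024 ± 0.26 (SE), adjusted p = 0.972 by edgeR. The ratio of Irx1 to Irx2 counts within a library ranged from 0.793 to 1.14, a 1.44-fold span.

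The rest of the Iroquois family was nearly silent in these islets. Irx4, the next gene after Irx2, and Irx6 had 0 counts in every library, which allows a level of up to 0.272 CPM in Traf6 KO 1, the library of the smallest effective size (3 counts, counting error only). Irx5 reached at most 0.181 CPM, and Irx3 averaged 0.657 CPM, with its highest value, 1.84 CPM, in control 4. Among the 3 family members tested (Irx1, Irx2 and Irx3) 0 passed, and each fold change lay below zero.

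Fev (ENSMUSG00000055197, chromosome 1, 74881509 to 74885419, minus strand, GRCm38) was expressed at 12.8, 11.2, 8.49 and 11.6 CPM in controls 1 to 4. It stood at 7.52, 9.60 and 12.6 CPM in Traf6 KO 1 to 3, so Traf6 KO 1 was lowest and Traf6 KO 3 near the top of the control range. The log2 fold change was -0.15 ± 0.21 (SE), adjusted p = 0.770 by edgeR. Cryba2, a crystallin gene that lies 4514 bp from Fev, stood at 33.0 to 45.1 CPM in control and 22.7 to 25.2 CPM in Traf6 KO. The genotypes did not overlap for Cryba2, but its log2 fold change of -0.69 ± 0.13 (SE) did not pass, adjusted p = 0.176 by edgeR. Cdk5r2, the gene on the other side of Fev, stood at 49.7 to 56.5 CPM in control and 36.2 to 45.0 CPM in Traf6 KO, also without overlap. Its log2 fold change was -0.35 ± 0.11 (SE), adjusted p = 0.217 by edgeR. The difference between Fev and these neighbours was not tested.

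The serotonin genes with which Fev is linked in neurons were unevenly present. Tph1, which encodes the tryptophan hydroxylase of peripheral tissues, had 0 counts in all libraries, and Tph2 averaged 0.872 CPM. Ddc, the aromatic amino acid decarboxylase gene, averaged 299 CPM, Slc18a1, a vesicular monoamine transporter gene, 10.4 CPM and Lmx1b, a homeobox gene of serotonin neurons, 9.55 CPM. Of 7 serotonin genes tested of 11 listed, 0 passed, with 5 above zero and 2 below and a median log2 fold change of 0.16. Slc6a4, the serotonin transporter gene, was highest in the acinar-rich libraries, with 10.1 CPM in Traf6 KO 1, 7.22 CPM in Traf6 KO 2 and 1.79 CPM in control 1, and was at most 0.389 CPM elsewhere.

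Pou3f4 (ENSMUSG00000056854, X chromosome, 110814280 to 110817207, plus strand, GRCm38) was the least abundant member. Counts were 26, 63, 24 and 46 in controls 1 to 4 and 8, 19 and 62 in Traf6 KO 1 to 3, or 0.911, 1.76, 0.703 and 1.63 CPM against 0.724, 1.02 and 2.01 CPM. The exact 95% Poisson interval of control 3, the lowest by CPM, ran from 0.450 to 1.05 CPM and that of Traf6 KO 3, the highest by CPM, from 1.54 to 2.58 CPM, for counting error only. Traf6 KO 1, with the fewest counts, had an interval of 0.313 to 1.43 CPM. Both tag S libraries and control 2 were high, and the other 4 libraries were low, with both genotypes in each set. The log2 fold change was 0.040 ± 0.48 (SE), adjusted p = 0.976 by edgeR, with the widest SE of the 4 transcription factor members. Without Traf6 KO 3, which by its Xist count is the female library, it was -0.50. That fit keeps only the acinar-rich Traf6 KO libraries, and the part of sex or of exocrine content was not tested. Pou3f1, Pou3f2 and Pou3f3, its closest relatives, averaged 0.315, 0.0154 and 0.0170 CPM and did not pass the filter.

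**Figure D2:**
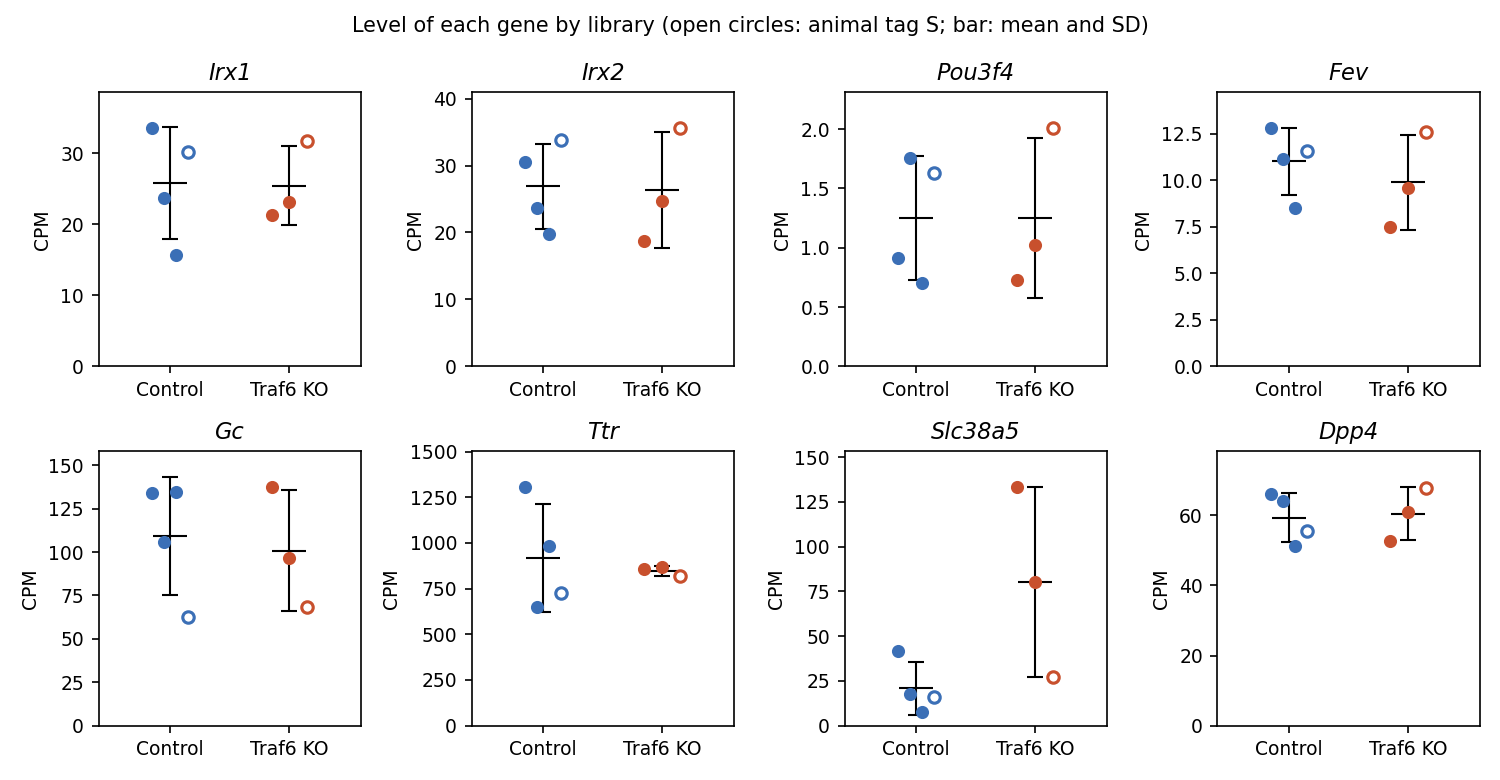
CPM of each of the 8 genes by library, with mean and SD of 4 control (blue) and 3 Traf6 KO (orange) libraries; open circles are the tag S libraries. The genotypes overlap in each panel, and the tag S libraries are the lowest 2 for Gc.

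Ratios to Gcg within a library do not depend on the scaling between libraries, nor on dilution by RNA of cells that make neither transcript. Per 1000 Gcg counts, Irx1 gave 1.13, 1.04, 1.02 and 1.23 counts in controls 1 to 4 and 1.24, 1.13 and 1.18 in Traf6 KO 1 to 3. This 1.22-fold span held across libraries whose acinar share differed from 0.431% to 52.6%. Fev gave 0.432 to 0.552 counts per 1000 Gcg counts, Irx2 gave 1.03 to 1.37 and Dpp4 gave 2.23 to 3.34. The SD of the log2 ratio over the 7 libraries was 0.11 for Irx1, 0.12 for Fev, 0.17 for Irx2 and 0.22 for Dpp4, beside a median of 0.40 over 8910 genes with a mean of at least 10 CPM. Only 0, 2, 9 and 52 of those 8910 genes, respectively, had a smaller SD.

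The ratios of Ttr, Gc and Slc38a5 to Gcg varied more than the median gene. Their SDs were 0.45, 0.70 and 1.46, and 6009, 8372 and 8755 of the 8910 genes had a smaller one. Pou3f4, with 8 to 63 counts a library, had an SD of 0.49 without a pseudocount. With the pseudocount of 0.5 CPM behind these rankings, 2164 genes had a smaller SD than it. Per 1000 Gcg counts Pou3f4 ran from 0.0307 in control 1 (26 counts) to 0.0770 in control 2 (63 counts). The part of counting error in this spread was not tested. This division of the members was made after their values were seen. None of the 8 ratios separated the genotypes without overlap. The exact two-sided permutation p over 35 splits was 0.229 for Irx1, 0.8 for Irx2, 0.457 for Fev, 0.514 for Dpp4, 0.857 for Ttr and for Pou3f4, 0.971 for Gc and 0.114 for Slc38a5, unadjusted, in a design that cannot go below 0.0571. The log2 ratio of Irx1 to Gcg averaged -9.83 over the 4 controls (SD 0.12) against -9.72 over the 3 Traf6 KO libraries (SD 0.065). Without control 4, the highest control for this ratio, the ratios of Irx1 in Traf6 KO all lay above those in control. The log2 difference was then 0.16 in place of 0.11, with an unadjusted exact permutation p of 0.1. The nearest values were 1.1349 per 1000 Gcg counts in Traf6 KO 2 and 1.1303 in control 1. Leaving out any other single library did not separate the Irx1 ratios.

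**Figure D3:**
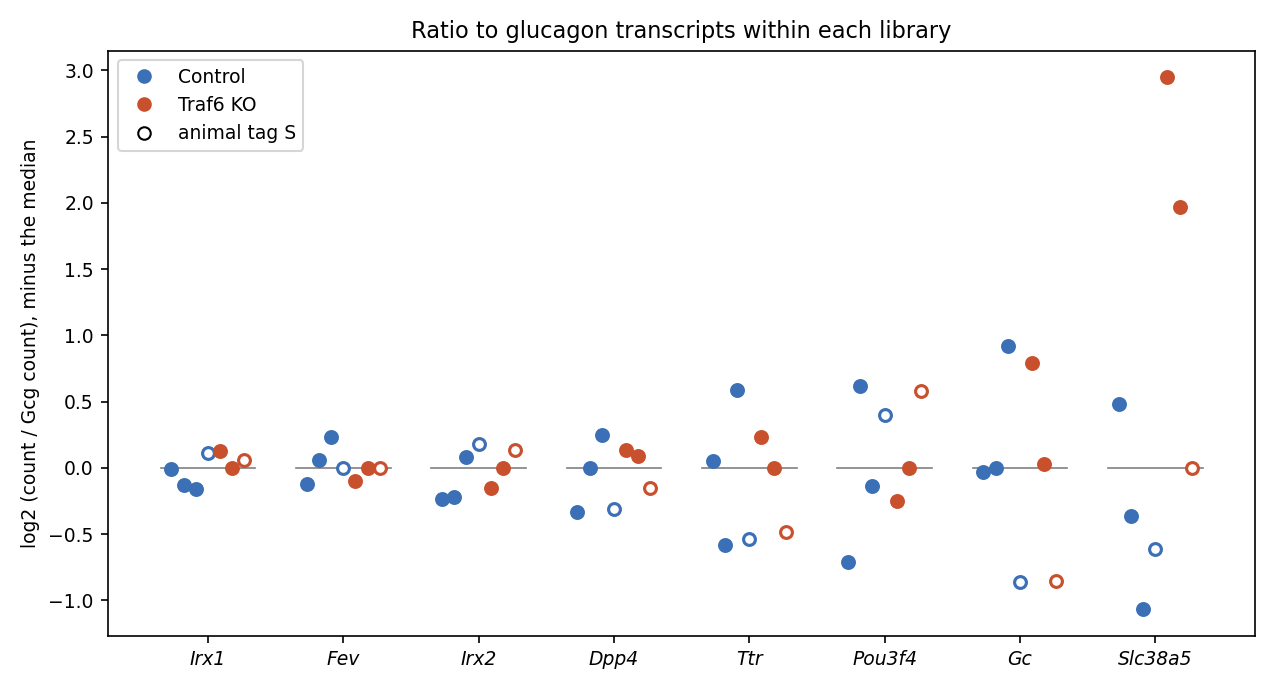
Log2 ratio of each gene's count to the Gcg count of the same library, minus the median over the 7 libraries; each point is a library. Irx1, Fev, Irx2 and Dpp4 stay near 0, whereas Gc is low in both tag S libraries and Slc38a5 is high in Traf6 KO 1 and 2.

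Likeness was also measured without Gcg as a reference, as the root mean square difference between mean-centred log2 CPM profiles over the 7 libraries. Of 8910 genes with a mean of at least 10 CPM, the nearest to Irx1 was Gcg (0.098 log2 units), followed by Nab2 (0.14). The nearest to Irx2 were Tat (0.11) and Klf16 (0.11), with Fev at 0.15 and 13 genes nearer than Fev. The nearest to Fev were Zfp467 (0.086) and Galr3 (0.088), with Gcg at 0.11 and 12 genes nearer than Gcg. Gria3 (0.098) and Csf1 (0.11) were nearest to Pou3f4, and Asah1 (0.061) and Cep70 (0.064) to Dpp4. For Gc, Atg101 (0.13) and Tyw1 (0.20) were nearest, and for Ttr it was Rgs5 (0.14) and Kcnab3 (0.15). The points of each profile share library size, acinar content and animal, so these distances describe the 7 libraries. For Dpp4, 3092 genes were nearer than Gcg.

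The windows of 250 bases upstream of the start of Gcg, Irx2 and Gc are printed because Irx2 kept its proportion to Gcg and Gc did not. They come from RefSeq on GRCm38.p6, read 5′ to 3′ on the gene's strand, at chr2:62483654-62483903 (minus), chr13:72628570-72628819 (plus) and chr5:89457899-89458148 (minus). Capitals mark matches on either strand to the HNF1 motif (in Gc) or to TATAAA, the TATA box (in Gcg).
Gcg: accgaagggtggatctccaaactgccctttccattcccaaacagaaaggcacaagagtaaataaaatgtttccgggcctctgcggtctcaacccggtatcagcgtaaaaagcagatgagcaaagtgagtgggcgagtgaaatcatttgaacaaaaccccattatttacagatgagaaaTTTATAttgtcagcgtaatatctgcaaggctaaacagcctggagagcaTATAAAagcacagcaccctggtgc
Irx2: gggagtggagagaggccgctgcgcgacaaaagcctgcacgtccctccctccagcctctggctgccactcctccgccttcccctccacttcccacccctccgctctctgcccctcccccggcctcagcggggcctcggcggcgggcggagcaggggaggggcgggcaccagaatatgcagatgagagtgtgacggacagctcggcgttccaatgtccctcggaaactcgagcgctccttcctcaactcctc
Gc: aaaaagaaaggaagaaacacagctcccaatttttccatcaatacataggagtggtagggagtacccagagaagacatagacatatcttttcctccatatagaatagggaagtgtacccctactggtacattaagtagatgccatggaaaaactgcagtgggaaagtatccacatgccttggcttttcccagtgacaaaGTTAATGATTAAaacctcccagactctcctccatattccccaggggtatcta
The HNF1 motif was found once in the Gc window, beginning 52 bases before the start, and in 20 of 32851 windows of that length (0.0609%). TATA motifs began 72 and 24 bases before the start in the Gcg window, and 12.4% of all windows hold one. Neither motif was found in the Irx2 window, whose GC content of 68.4% compares with 42% for Gc, 44.8% for Gcg and a median of 52.4% over all windows. Searches of both strands for TGTTTAC (FOXA factors, in 3.17% of windows), TAATTA (homeodomain factors, in 4.84%) and CACCTG (an E-box, in 17.2%) gave no match in these 3 windows. These matches describe letters only, and binding was not measured.

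Gc and Ttr are liver-type plasma carrier genes that alpha cells also transcribe. Gc (ENSMUSG00000035540, chromosome 5, 89417522 to 89457898, minus strand, GRCm38) stood at 134, 106, 134 and 62.8 CPM in controls 1 to 4 and at 137, 96.5 and 68.6 CPM in Traf6 KO 1 to 3. The lowest control and the lowest Traf6 KO library were those with tag S, and the other 5 lay well above them. The log2 fold change between genotypes was -0.12 ± 0.31 (SE), adjusted p = 0.882 by edgeR. Per 1000 Gcg counts, Gc gave 2.55 counts in control 4 and 2.55 in Traf6 KO 3, and 4.52 to 8.74 in the other 5 libraries. In a comparison added after these values were seen, tag S libraries were set against tags Q and R with genotype as a term. Gc was lower in tag S by a log2 difference of -0.89 ± 0.18 (SE), which did not pass, adjusted p = 0.265 and unadjusted p = 0.0018 by edgeR, and the share of genes called in this comparison was 0% of 16900, with 2474 at an unadjusted p under 0.05. Each genotype has 1 tag S library, and Traf6 KO 3 is also the library with Xist. The sample titles also number the tag S samples apart from the others. The part of sex, of a batch or of any other difference between the samples was not tested.

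Irx2, by contrast, stood higher in tag S, with a log2 difference of 0.57 ± 0.19 (SE) that did not pass, adjusted p = 0.297 by edgeR. Slc38a5 differed by -1.11 ± 0.68 and Pou3f4 by 0.83 ± 0.44 (SE), adjusted p = 0.449 and 0.402 by edgeR. Irx1, Fev, Dpp4 and Ttr differed by 0.40 ± 0.26, 0.31 ± 0.21, 0.057 ± 0.15 and -0.27 ± 0.28 (SE), adjusted p = 0.464, 0.482, 0.865 and 0.653 by edgeR.

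Ttr (ENSMUSG00000061808, chromosome 18, 20665280 to 20674321, plus strand, GRCm38) stood at 1306, 649, 986 and 724 CPM in controls 1 to 4. In Traf6 KO 1 to 3 it stood at 858, 869 and 816 CPM, a narrow set that lay inside the control range. On the log2 scale the genotypes differed by -0.11 ± 0.26 (SE), adjusted p = 0.865 by edgeR. Relative to Gcg, Ttr ranged from 28.4 to 64.0 counts per 1000 and was lowest in control 2 and in both tag S libraries. Control 3 had the highest ratio for both Gc and Ttr, 8.74 and 64.0 per 1000, together with the lowest Gcg level, 15392 CPM. The ratio of Gc to Ttr itself spanned 0.0840 to 0.163.

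Partners of these carriers were tested from lists of retinol, thyroxine and vitamin D genes. Rbp4, the retinol-binding protein carried by transthyretin, was at a mean of 132 CPM over the 4 controls (SD 16.8) against 99.2 CPM over the 3 Traf6 KO libraries (SD 26.2), with a log2 fold change of -0.41 ± 0.19 (SE), adjusted p = 0.328 by edgeR. The thyroid hormone receptor genes had fold changes of opposite sign: Thra averaged 46.1 CPM with a log2 fold change of -0.23 ± 0.11, and Thrb averaged 10.7 CPM with 0.59 ± 0.17 (SE), adjusted p = 0.339 and 0.212 by edgeR. The genotypes did not overlap for Thrb, which was higher in Traf6 KO but did not pass. In that list 0 of 7 tested genes passed, with 3 above zero and 4 below. Vdr, the vitamin D receptor gene, averaged 140 CPM with a log2 fold change of -0.24 ± 0.22 (SE), adjusted p = 0.605 by edgeR, Cyp24a1 had 0 counts, and 0 of 4 tested genes of the vitamin D list passed. Alb, the albumin gene, of the same family as Gc, was at 0.259 to 9.06 CPM, far below Gc, with its highest value in the acinar-rich Traf6 KO 1.

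Dpp4 (ENSMUSG00000035000, chromosome 2, 62330073 to 62412231, minus strand, GRCm38) was the steadiest of the members. It stood at 66.2, 64.1, 51.4 and 55.7 CPM in controls 1 to 4 and at 52.7, 60.9 and 67.9 CPM in Traf6 KO 1 to 3, a 1.32-fold span over all libraries. The genotypes covered the same range, and the log2 fold change was 0.029 ± 0.13 (SE), adjusted p = 0.932 by edgeR. An antisense gene, Gm13561, overlaps Dpp4 and had at most 0.181 CPM. Gcg lies 62298 bp from Dpp4 on the same strand, and Fap, a fibroblast peptidase gene of the same family, follows 17292 bp beyond Gcg. Fap was at 0.146 to 0.815 CPM, a log2 fold change of 1.39 ± 0.55 (SE), adjusted p = 0.283 by edgeR. Among the 8 genes of this peptidase list, Dpp4 included, 0 passed, the most abundant being Dpp9 at 81.8, Dpp8 at 78.0 and Dpp3 at 70.8 CPM on average.

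The receptor genes of glucagon, of glucagon-like peptide 1 and of the peptide encoded by Gip were also measured. Gcgr, the glucagon receptor gene, stood at a mean of 34.6 CPM over the 4 controls (SD 9.73) against 20.4 CPM over the 3 Traf6 KO libraries (SD 6.66), with a log2 fold change of -0.75 ± 0.29 (SE) that did not pass, adjusted p = 0.271 by edgeR. Gipr had a log2 fold change of -0.55 ± 0.31 and Glp1r one of -0.095 ± 0.20 (SE), adjusted p = 0.410 and 0.851 by edgeR. Gip had 0 counts in all libraries.

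Slc38a5 (ENSMUSG00000031170, X chromosome, 8271133 to 8280179, plus strand, GRCm38) was the member with the widest spread. It stood at 41.8, 17.9, 7.41 and 16.3 CPM in controls 1 to 4 and at 133, 80.5 and 27.1 CPM in Traf6 KO 1 to 3. Traf6 KO 1 and 2 lay above every control, whereas Traf6 KO 3 lay below control 1, so the genotypes overlapped. Between genotypes the log2 fold change was 1.94 ± 0.64 (SE), which did not pass, adjusted p = 0.234 and unadjusted p = 0.0165 by edgeR. With 1 library left out it ran from 1.39, without Traf6 KO 1, to 2.56, without control 1, the only acinar-rich control.

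High Slc38a5 went with high exocrine content, which is a description, since it was known when the gene was chosen. The 3 acinar-rich libraries held its 3 highest values, in the order of their acinar shares of 18.9%, 40.2% and 52.6%, in both genotypes. Among the 4 acinar-poor libraries the order was different: Traf6 KO 3 was highest at 27.1 CPM with an acinar share of 1.51%, while control 4 had 16.3 CPM with a share of 3.04%. All 21 acinar markers had a fold change above zero, their median log2 fold change was 3.20, none was at 0 in any library, and their summed share ran from 0.431% to 18.9% in control and from 1.51% to 52.6% in Traf6 KO. With the acinar level in the model, Slc38a5 differed by 0.74 on the log2 scale (adjusted p = 0.326 by edgeR). Without the 3 acinar-rich libraries the log2 fold change of Slc38a5 was 0.96. This leaves 1 Traf6 KO library, Traf6 KO 3, assumed to vary like the controls. As Traf6 KO 3 is also the library with Xist, genotype and sex cannot be told apart there. Per 1000 Gcg counts Slc38a5 ran from 0.481 to 1.41 in control and gave 7.77, 3.94 and 1.01 counts in Traf6 KO 1 to 3. Wwc1 (0.20 log2 units) and Clu (0.35) were the nearest genes to its profile.

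Other amino acid transporters of the SLC38 family were measured beside it. Slc38a3, which like Slc38a5 encodes a system N glutamine transporter, ranged from 0.439 CPM in control 3 to 124 CPM in Traf6 KO 1 in the order of the acinar shares and had a log2 fold change of 3.27 ± 1.47 (SE) that did not pass, adjusted p = 0.325 by edgeR. The ratio of Slc38a5 to Slc38a3 counts was 1.80, 1.08 and 0.999 in control 1, Traf6 KO 1 and Traf6 KO 2, and 4.08 to 19.4 in the 4 acinar-poor libraries. Slc38a2, a transporter gene induced when amino acids are scarce, stood at 47.7 to 63.0 CPM in control and 112, 80.2 and 97.2 CPM in Traf6 KO 1 to 3. The genotypes did not overlap for Slc38a2, the acinar-poor Traf6 KO 3 included, but it did not pass: its log2 fold change was 0.72 ± 0.15 (SE), adjusted p = 0.176 and unadjusted p = 0.0013 by edgeR. Slc38a4, the most abundant after Slc38a10, had a log2 fold change of -0.20 ± 0.13 (SE), adjusted p = 0.464 by edgeR. Of 11 family genes tested, Slc38a5 included, 0 passed, with 7 above zero and 4 below.

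**Figure D4:**
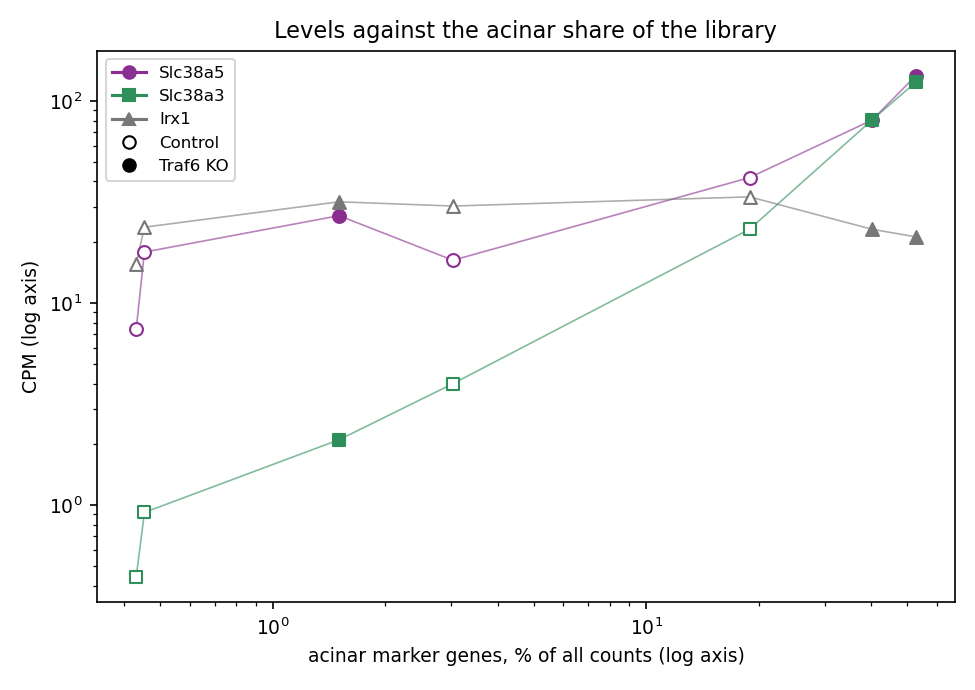
CPM of Slc38a5, Slc38a3 and Irx1 (log axis) against the share of counts from 21 acinar markers (log axis) in 4 control (open) and 3 Traf6 KO (filled) libraries. Slc38a3 climbs over the whole range, Slc38a5 climbs in the 3 acinar-rich libraries, and Irx1 stays between 15.6 and 33.5 CPM.

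The glucagon gene overlapped between genotypes as well. Gcg stood at 29681, 22840, 15392 and 24651 CPM in controls 1 to 4 and at 17149, 20427 and 26865 CPM in Traf6 KO 1 to 3, with a log2 fold change of -0.11 ± 0.45 (SE), adjusted p = 0.929 by edgeR. Of the 12 other alpha-cell genes tested, Gcg included, 0 passed, with 7 above zero and 5 below and a median of 0.16. Tm4sf4, a tetraspanin-like gene, stood at 281 to 324 CPM in control and 238 to 258 CPM in Traf6 KO, without overlap, with a log2 fold change of -0.32 ± 0.12 (SE), adjusted p = 0.263 by edgeR. Wnk3, a kinase gene, had a mean of 15.3 CPM over the controls against 23.7 CPM over the Traf6 KO libraries, with overlap, and differed by 0.63 ± 0.23 on the log2 scale (SE), adjusted p = 0.262 by edgeR. Slc7a2, an arginine transporter gene, ranged from 144 CPM in Traf6 KO 1 to 242 CPM in Traf6 KO 3, and its log2 fold change was 0.16 ± 0.21 (SE), adjusted p = 0.743 by edgeR.

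Of the 11 transcription factor genes shared by several islet endocrine cell types that were tested, 0 passed, with 5 above zero and 6 below and a median log2 fold change of -0.025. Pax6, which acts on the glucagon and insulin genes, averaged 286 CPM with a log2 fold change of -0.078 ± 0.21. Insm1 averaged 227 CPM, with 0.043 ± 0.17, and Nkx2-2 173 CPM, with -0.34 ± 0.18, and Neurod1 131 CPM, with -0.16 ± 0.31 (SE), adjusted p = 0.884, 0.922, 0.383 and 0.827 for Pax6, Insm1, Nkx2-2 and Neurod1 by edgeR. In these 4 genes Traf6 KO 1, the library with the largest acinar share, held the lowest value.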

How the data were processed

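RNA of isolated mouse islets was sequenced in 4 control and 3 Traf6 KO libraries, with paired reads of 151 bp per the labels' protocols. The authors deposited 1 table of whole-number read counts per gene, which are not normalized. The submitters' processing notes list FastQC, RSEM 1.3.1 and STAR 2.6.1b, with GRCm38 as the build, but not their roles, and the strand setting of the counting is not given in the sources used here, so where genes overlap, on either strand, their reads cannot be separated. Each table column was matched to its sample by the column name in the labels.

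Genes were kept with a count of at least 10 in enough libraries and 15 in all (filterByExpr), scaled by TMM and tested with edgeR 4.0.16 (quasi-likelihood, Benjamini-Hochberg adjustment over all genes kept, threshold 0.05) in R 4.3.3. DESeq2 1.42.0 and limma 3.58.1 were alternatives, with other scalings, filters, an acinar covariate, animal tags, a replicate block and each library left out in turn. The SE of a log2 fold change was computed as its absolute value divided by the square root of the F statistic of edgeR's test. Ratios to Gcg were compared by exact two-sided permutation tests (scipy 1.17.1). Gene positions and exon lengths came from GENCODE M21, and upstream sequences from RefSeq on GRCm38.p6. The edgeR script was tested on simulated data.

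The members and gene lists were chosen with earlier results of these data known. Genes named are the 8 members, Gcg, up to 4 genes per related list with the highest mean CPM, the 2 genes nearest to each member in profile, and genes next to a member on its chromosome. Thrb, Slc38a3, Slc6a4, Tph2, Wnk3, Peg10 and genes at 0 counts fall outside that rule and were named after their values were seen. Some genes of that rule, and ratios to a denominator other than Gcg and Chga, are not reported here.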

Additional observations from a re-analysis of the deposited data

How the results depend on the processing

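Fits chosen after seeing the data were those without the 3 acinar-rich libraries, with the acinar covariate without tag S, and unblocked on 6 libraries. Without the acinar-rich libraries 1 Traf6 KO library was left, the library with Xist. Without Traf6 KO 3 only acinar-rich Traf6 KO libraries were left. Genes called went from 0 to 3 with the acinar covariate (Igkv15-103, Ighv6-3 and Ighv1-80), 744 with the DESeq2 Wald test, 67 without the 3 acinar-rich libraries, and 0 to 701 with 1 library left out, the 701 without Traf6 KO 3. Same-numbered libraries correlated at 0.56, -0.13 and 0.44 after centring within genotype, which cannot decide whether the numbers pair them. The labels name no shared litter or batch, so the replicate block rests on the numbers alone. It joins control 3 (tag R) to Traf6 KO 3 (tag S), and acinar-rich control 1 to acinar-rich Traf6 KO 1. Acinar-rich control 1 correlated at 0.56 with Traf6 KO 1 and at 0.51 with Traf6 KO 2, both also acinar-rich. With the replicate block, on 6 libraries, 5 genes were called (Slc38a5, Gm2663, Reg3b, Wwc1 and Plk2), 1 of them a member: Slc38a5, 1.91 with an edgeR adjusted p of 0.0449, and 0.384 for the same 6 libraries unblocked. Slc38a5 kept a fold change above zero in all 22 alternatives (0.663 to 2.56). The other members changed sign under some settings, and the cause was not tested. Gcg, Irx1, Ttr, Fev and Irx2 had their largest falls with the acinar covariate without tag S: -0.830, -0.824, -0.808, -0.658 and -0.591. Each had an edgeR adjusted p of 0.802, and unadjusted p was 0.0379, 0.0422, 0.0395, 0.0888 and 0.0847. Log2 fold changes were, for Irx1 and Irx2, 0.117 and 0.0835 with the replicate block, 0.070 and 0.106 unblocked, 0.072 and 0.0345 with limma-voom, and 0.446 and 0.467 without the acinar-rich libraries. There Fev was 0.265, Gcg 0.351 and Ttr 0.0446. Irx1 was 0.0019 with DESeq2 and Irx2 0.0412 with the acinar covariate. Library totals alone, which move the median of all genes to -0.46, gave -0.730 for Gc, -0.376 for Dpp4 and -0.256 for Pou3f4. Tags Q and R alone gave -0.0905 for Dpp4 and -0.345 for Pou3f4. Dpp4 was -0.0082 with upper-quartile factors and -0.256 with the acinar covariate without tag S, and Pou3f4 -0.131 with tag S as a term. With 1 library left out, ranges were -0.212 to 0.155 for Irx1, -0.306 to 0.174 for Irx2, -0.496 to 0.293 for Pou3f4, -0.358 to 0.0175 for Fev, -0.394 to 0.0964 for Gc, -0.244 to 0.131 for Ttr, -0.062 to 0.126 for Dpp4 and -0.302 to 0.0543 for Gcg. Chga itself was lower in every Traf6 KO library than in every control (log2 fold change -0.44 ± 0.37, SE, adjusted p = 0.586 by edgeR). With Chga as denominator the ratio difference of every member lay above zero, with 0.274 for Fev, 0.335 for Gc and 0.473 for Dpp4. With tags Q and R alone, ratio differences to Gcg were 0.118 for Gc and -0.0488 for Pou3f4. With 1 library left out they ranged from -0.183 to 0.259 for Pou3f4, -0.0271 to 0.119 for Irx2, -0.419 to 0.406 for Gc and -0.124 to 0.272 for Ttr. Ratios without overlap were 1 with Chga (Dpp4), 2 with tags Q and R alone (Irx1 and Slc38a5) and 0 to 2 with 1 library left out. Depth limits Pou3f4 most, with 8 counts in Traf6 KO 1.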

Other observations

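Peg10, an imprinted retrotransposon-derived gene, had the widest range among the other alpha-cell genes relative to its level. It stood at 4.17, 8.84, 2.99 and 5.87 CPM in controls 1 to 4 and at 2.08, 5.28 and 37.1 CPM in Traf6 KO 1 to 3. Traf6 KO 3 alone was far above the other 6 libraries. The log2 fold change between genotypes was 1.46 ± 0.84 (SE) with an adjusted p of 0.423 by edgeR, and between tag S and the other tags it was 1.92 ± 0.81 (SE) with an adjusted p of 0.341 by edgeR.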
